A study of Mus musculus with 9 samples.

Results

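The enzymes that make and break down heme were followed in mouse liver by the transcripts of 9 genes, chosen by name from 55401 genes in the count table: Alas1, Alad, Uros, Urod, Cpox, Ppox and Fech of heme synthesis, and Hmox1 and Blvrb of heme breakdown. All 9 were present and all 9 passed the filter on low counts, among 15717 genes tested. RNA sequencing was done on whole liver of female mice that were 6 weeks old at the start, with 3 livers per group. Healthy livers came from untreated mice kept as the baseline. Both HCC groups were given sleeping beauty transposon plasmids hydrodynamically, that is by a fast, large-volume tail vein injection from which hepatocytes take up DNA: pT3-EF1α-HA-myr-AKT, an activated AKT, pT/Caggs-Nras-v12, an activated NRAS, and pCMV-SB11, the transposase. The protocol text of the labels also names an N90-β-catenin plasmid, while the RNA sequencing concerned RAS/AKT HCC. One week later, untreated HCC mice received a blank AAV8, and miR-22-treated HCC mice received AAV8 carrying miR-22 behind a CMV promoter that is not specific to a cell type. Livers were taken 5 weeks after the oncogenes and 4 weeks after the virus. The strain is C57BL/6 in the strain field of the labels but FVB/N in their growth protocol and in the study's methods. The separate livers are the replicates, and the time of day of collection is not given in the sources used here.

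Heme is an iron-containing ring made by a relay between mitochondria and cytosol. ALAS1, in mitochondria, joins glycine to succinyl-CoA and is the rate-limiting step in liver, where much of the heme goes to cytochromes P450; ALAD, UROS and UROD act in the cytosol, where the ring is built and trimmed, and CPOX, PPOX and FECH finish it in mitochondria, FECH by inserting iron. HMOX1 opens the ring to biliverdin, carbon monoxide and iron. BLVRA reduces the biliverdin so made to bilirubin, which the liver conjugates and sends to bile, and BLVRB reduces other biliverdin isomers and flavins. The erythroid isozyme Alas2, the constitutive oxygenase Hmox2 and Blvra are given beside the 9 genes as partners.

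Transcripts of 5 of the 7 synthesis enzymes were lower in untreated HCC, and some were higher again with miR-22. Of all genes tested, 18.1% were called lower in that comparison, and with total-count scaling 1 of the 5 was still called. In untreated HCC, Alas1, Alad, Urod, Cpox and Fech fell 1.60-fold to 2.13-fold against healthy liver. With miR-22, Alas1 was 2.00-fold higher than in untreated HCC and overlapped the healthy livers, and Urod and Fech rose 1.40-fold and 1.44-fold, past the threshold on p but not on fold. Cpox passed likewise at 1.27-fold but lost this in most alternatives and stayed called lower against healthy liver, as did Alad. The mean of Alad was 162 CPM with miR-22 and 163 CPM without it. For Uros, Ppox, Hmox1 and Blvrb no comparison passed the test. Levels are CPM, counts relative to library size after edgeR's TMM scaling, means are given ± SD with n = 3, and a gene was called at a Benjamini-Hochberg adjusted p under 0.05 in edgeR's quasi-likelihood test over all genes together with a fold change over 1.5.

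The libraries held 16664659 to 23908392 counts. Scaling matters here, since TMM factors differed by group, from 0.865 to 0.872 for healthy, from 1.12 to 1.22 for untreated and from 0.942 to 1.03 for treated livers. Dividing by total counts alone, an alternative chosen after seeing the data, moved the median log2 fold change of all genes by 0.42, -0.23 and 0.19 in the 3 comparisons, in the order HCC against healthy, miR-22 against HCC and miR-22 against healthy. As a check of the labels, Akt1 stood at 105 ± 2.96 CPM in healthy liver, 1490 ± 275 CPM in untreated HCC and 858 ± 223 CPM in miR-22-treated HCC, and Nras at 28.6 ± 1.51, 69.9 ± 7.02 and 54.6 ± 1.09 CPM. In treated livers the means of both genes lay between those of the other groups. The paper reports less tumor in miR-22-treated than in untreated livers. A changed share of tumor and a change within cells cannot be told apart in these whole-liver comparisons.

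The agent itself is shown because its seed is what a direct target would match. Mature mmu-miR-22-3p from RefSeq, encoded at chr11:75463772-75463793 on the plus strand of GRCm38.p6, has its seed, bases 2 to 8, in capitals, and the stretch of the Hmox2 3′ UTR below it has the complement of that seed in capitals.
mmu-miR-22-3p: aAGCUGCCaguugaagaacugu
Hmox2 3′ UTR site: gcttcataccaGGCAGCTcttgagtgtttc
None of the 9 genes held GGCAGCT in the 3′ UTR of its Ensembl canonical transcript (GENCODE M39, GRCm39), where 14.0% of 20854 protein-coding genes held it. The same match less its first base, GCAGCT, occurred 5 times in the 3′ UTR of Uros and 1 time each in Urod, Fech and Hmox1. How often all genes hold this shorter match was not counted. Among the 3 partners GGCAGCT was found in Hmox2, at chr16:4585790-4585796 on the plus strand, bases 1821 to 1827 of a 3′ UTR of 5847 bases. A match of letters is a description and not a tested site.

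Of the 5 genes that fell together in HCC, 4 had promoter windows in the RefSeq table (GRCm38.p6, 250 bases before to 50 after the start), and these are shown to compare what precedes them. Alas1 lies at chr9:106247905-106248204 on the minus strand, Alad at chr4:62519860-62520159 on the minus strand, Urod at chr4:116994364-116994663 on the minus strand and Cpox at chr16:58669958-58670257 on the plus strand. Capitals mark matches to the motifs searched. For Alas1 the first of 2 listed windows was taken, and it does not hold the start of the canonical transcript.
Alas1 promoter: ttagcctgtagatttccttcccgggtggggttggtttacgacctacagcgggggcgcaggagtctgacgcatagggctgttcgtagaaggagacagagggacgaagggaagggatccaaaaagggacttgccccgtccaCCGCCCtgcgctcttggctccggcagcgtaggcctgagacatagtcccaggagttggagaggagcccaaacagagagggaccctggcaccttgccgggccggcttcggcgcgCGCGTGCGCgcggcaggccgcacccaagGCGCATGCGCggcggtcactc
Alad promoter: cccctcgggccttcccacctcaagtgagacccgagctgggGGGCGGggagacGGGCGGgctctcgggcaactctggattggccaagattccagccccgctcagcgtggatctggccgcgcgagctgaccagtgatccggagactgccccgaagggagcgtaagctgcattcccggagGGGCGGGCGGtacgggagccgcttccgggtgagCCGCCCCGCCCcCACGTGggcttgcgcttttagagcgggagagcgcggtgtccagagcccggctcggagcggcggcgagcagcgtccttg
Urod promoter: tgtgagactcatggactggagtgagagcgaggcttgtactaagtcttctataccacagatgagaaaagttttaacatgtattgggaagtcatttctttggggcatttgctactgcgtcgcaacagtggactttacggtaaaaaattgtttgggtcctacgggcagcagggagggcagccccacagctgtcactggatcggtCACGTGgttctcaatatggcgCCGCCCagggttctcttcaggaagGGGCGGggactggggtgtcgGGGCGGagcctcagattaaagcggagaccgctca
Cpox promoter: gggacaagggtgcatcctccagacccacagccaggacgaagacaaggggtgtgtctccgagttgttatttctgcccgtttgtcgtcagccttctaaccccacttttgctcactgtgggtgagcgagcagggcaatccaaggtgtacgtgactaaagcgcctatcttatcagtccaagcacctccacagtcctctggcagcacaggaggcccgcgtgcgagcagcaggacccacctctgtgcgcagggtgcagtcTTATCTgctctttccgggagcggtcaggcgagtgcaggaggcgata
The motifs, searched on both strands, were the GC box GGGCGG, held by 35.7% of all 32851 windows, TATAAA (13.6%), the NRF1 motif GCGCANGCG (6.25%), the CRE TGACGTCA (1.79%), TGACNNNGC of the antioxidant response element (12.4%), the E-box CACGTG (7.15%), the GATA motif AGATAA (11.2%), the nuclear receptor half-site AGGTCA (16.3%) and the HNF4 motif CAAAGTCCA (0.475%). The Alas1 window held 1 GC box and 3 matches to the NRF1 motif, some of them the same bases read on both strands. The Alad window held 6 GC boxes, which overlap in part, and 1 E-box, and the Urod window held 3 GC boxes and 1 E-box. The Cpox window had no GC box and 1 GATA match. GC content was 65.3% for Alas1, 71.3% for Alad, 53.3% for Urod and 58.7% for Cpox, against a median of 52.7% over all windows. The 4 windows shared no motif of the list, and of the other genes Uros, Ppox and Blvrb, which did not pass the test, each held at least 1 GC box.

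Alas1 (ENSMUSG00000032786.16, chr9:106110642-106135734, minus strand, GRCm39, 11 exons in the canonical transcript) varied most of the 9 between livers of a group, with an SD of 25% of the mean in healthy liver. Its level was 514, 425 and 692 CPM in the healthy livers, 306, 237 and 338 CPM in the untreated HCC livers and 481, 717 and 561 CPM in the miR-22-treated HCC livers. Every untreated HCC liver lay below every liver of both other groups, while the healthy and treated livers overlapped. In HCC the log2 fold change against healthy liver was -0.89 (SE 0.197, edgeR adjusted p = 0.00193), and with miR-22 against untreated HCC it was 1.00 (SE 0.197, edgeR adjusted p = 0.00374). Both calls were also past the threshold on p in 18 of 18 alternatives, with total-count values of -0.47 and 0.76. Between treated and healthy livers the log2 fold change was 0.11 (SE 0.195, edgeR adjusted p = 0.701), so the mean of treated livers was 108% of the healthy mean against 54.0% in untreated HCC.

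Alad (ENSMUSG00000028393.10, chr4:62423283-62438587, minus strand), the zinc enzyme that pairs the product of ALAS1 into porphobilinogen, fell in both HCC groups. Its level was 262, 284 and 287 CPM in healthy livers, 160, 140 and 189 CPM in untreated HCC and 181, 154 and 151 CPM in miR-22-treated HCC. All 6 HCC livers lay below all healthy livers, and both HCC groups overlapped. Against healthy liver the log2 fold change was -0.77 in untreated HCC (SE 0.119, edgeR adjusted p = 1.33e-04) and -0.78 in miR-22-treated HCC (SE 0.12, edgeR adjusted p = 3.42e-04). Between both HCC groups it was -0.01 (SE 0.119, edgeR adjusted p = 0.973).

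The ratio of Alas1 to Alad, chosen after their values were seen and given as a description, therefore set the treated livers apart. It was 1.5, 1.96 and 2.42 in the healthy livers from lowest to highest, 1.69, 1.79 and 1.91 in untreated HCC, and 2.66, 3.73 and 4.64 in miR-22-treated HCC. Every treated liver was above every liver of both other groups, whose ranges overlapped.

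Uros (ENSMUSG00000030979.13, chr7:133285987-133311801, minus strand), which closes the ring, read 25.8, 28.4 and 29.3 CPM in healthy livers, 23.1, 24.1 and 26.0 CPM in untreated HCC and 24.3, 23.2 and 24.2 CPM in treated livers. The healthy livers lay above the treated ones without overlap, but the log2 fold change of -0.22 did not pass (edgeR adjusted p = 0.0878). In untreated HCC it was -0.19 (edgeR adjusted p = 0.104), and its sign turned under total-count scaling.

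Urod (ENSMUSG00000028684.14, chr4:116844840-116851610, minus strand) trims the carboxyl groups of the ring and was partly restored with miR-22. The healthy livers held 78.9, 85.0 and 85.4 CPM, the untreated HCC livers 51.1, 45.6 and 59.1 CPM and the miR-22-treated HCC livers 72.4, 74.4 and 71.4 CPM. The 3 groups did not overlap, with treated livers between the others. The log2 fold change was -0.68 in HCC against healthy (SE 0.0967, edgeR adjusted p = 6.68e-05) and 0.48 with miR-22 against untreated HCC (SE 0.0966, edgeR adjusted p = 0.0039), the latter under the 1.5-fold threshold. Against healthy liver, treated livers differed by -0.19 (edgeR adjusted p = 0.137).

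Cpox (ENSMUSG00000022742.6, chr16:58490414-58537999, plus strand), which oxidizes coproporphyrinogen in mitochondria, showed the largest fall of the 9 in HCC. It read 280, 292 and 291 CPM in healthy livers, 125, 121 and 159 CPM in untreated HCC and 169, 171 and 172 CPM in miR-22-treated HCC. Both HCC groups lay far below the healthy livers, and the treated livers sat narrowly above the highest untreated one. The log2 fold change was -1.09 in untreated HCC (SE 0.109, edgeR adjusted p = 3.33e-06) and -0.75 in treated HCC (SE 0.108, edgeR adjusted p = 1.99e-04) against healthy. The difference between both HCC groups, 0.34 (SE 0.108, edgeR adjusted p = 0.0378), passed on p alone and lost it in 12 of 18 alternatives, among them upper-quartile scaling (0.0532), a fit of both HCC groups alone (0.07), total-count scaling (0.408) and 8 of the fits without 1 liver.

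Ppox (ENSMUSG00000062729.11, chr1:171100969-171109385, minus strand), the enzyme after CPOX in the same compartment, did not separate the groups. Its values were 38.1, 30.4 and 31.1 CPM in healthy livers, 24.2, 25.7 and 31.0 CPM in untreated HCC and 31.2, 28.3 and 29.8 CPM with miR-22. All groups overlapped. In HCC against healthy the log2 fold change of -0.30 was at the threshold (SE 0.119, edgeR adjusted p = 0.0501) with an adjusted p from 0.014 to 0.395 over the alternatives, and under total-count scaling its sign turned to 0.12.

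Fech (ENSMUSG00000024588.9, chr18:64585985-64623322, minus strand), which places iron in the ring, fell in HCC and rose in part with miR-22. Healthy livers read 192, 210 and 198 CPM, untreated HCC livers 98.1, 94.9 and 119 CPM and miR-22-treated HCC livers 160, 155 and 136 CPM. The groups did not overlap, and treated livers lay between the others. The log2 fold change was -0.94 in HCC against healthy (SE 0.108, edgeR adjusted p = 1.09e-05), 0.53 with miR-22 against untreated HCC (SE 0.108, edgeR adjusted p = 0.00442) and -0.41 in treated HCC against healthy (SE 0.108, edgeR adjusted p = 0.00967). The last of these did not pass under total-count scaling (-0.23, edgeR adjusted p = 0.0709). Mean levels were 52.0% of healthy in untreated HCC and 75.1% with miR-22.

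Alas2, the erythroid isozyme of the first step, moved opposite to Alas1 in HCC. Healthy livers held 5.53, 6.87 and 8.19 CPM, untreated HCC livers 15.7, 10.8 and 13.7 CPM and miR-22-treated HCC livers 9.49, 14.2 and 12.7 CPM. All HCC livers lay above all healthy livers. The log2 fold change was 0.96 in untreated HCC (SE 0.198, edgeR adjusted p = 0.00115) and 0.82 in treated HCC (SE 0.2, edgeR adjusted p = 0.00668) against healthy, and -0.14 between both HCC groups (edgeR adjusted p = 0.642). Alas1 counts per Alas2 count ran from 61.9 to 92.8 in the healthy group, from 19.5 to 24.7 in the untreated group and from 44.0 to 50.6 in the treated group, ranges that did not overlap.

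**Figure D1:**
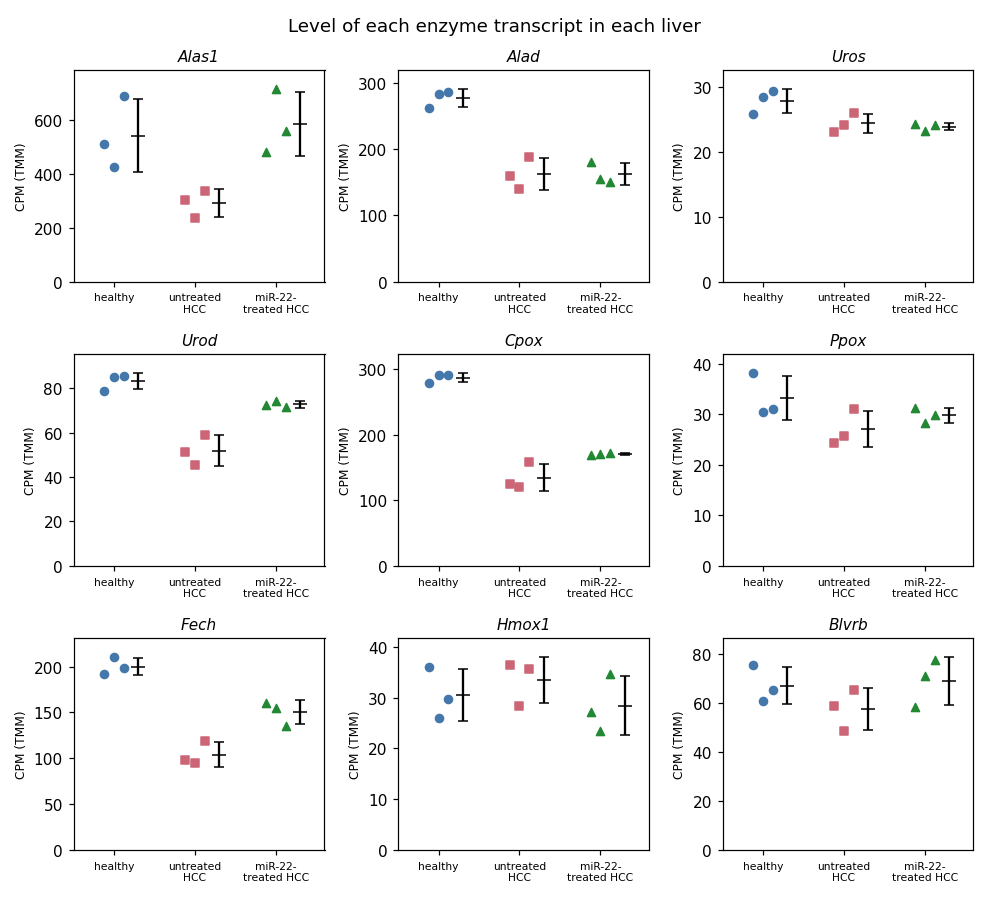
Level of each of the 9 transcripts, in CPM scaled by TMM on an axis from 0, in each of 3 livers per group, with the group mean and SD beside the points. Alas1 in the untreated HCC livers (237 to 338 CPM) lies below all other livers, whereas Alad stays low in both HCC groups.

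Hmox1 (ENSMUSG00000005413.8, chr8:75820241-75827217, plus strand), the inducible oxygenase and a target of the NRF2 and BACH1 factors, showed no call. It stood at 36.0, 25.9 and 29.8 CPM in healthy livers, 36.4, 28.3 and 35.6 CPM in untreated HCC and 27.1, 23.3 and 34.7 CPM with miR-22. The 3 groups overlapped throughout. The log2 fold change was 0.13 in HCC against healthy (SE 0.159, edgeR adjusted p = 0.507) and -0.23 with miR-22 against HCC (SE 0.159, edgeR adjusted p = 0.321), and the first became 0.55 under total-count scaling (edgeR adjusted p = 0.0121). Hmox2, the constitutive form, ranged from 36.4 to 38.7 CPM in the healthy group, from 26.4 to 30.7 CPM in the untreated group and from 34.4 to 41.3 CPM in the treated group. Its log2 fold change was -0.42 in HCC (SE 0.0992, edgeR adjusted p = 0.00306) and 0.39 with miR-22 (SE 0.099, edgeR adjusted p = 0.0136), both under the fold threshold. Under total-count scaling neither passed, with values of 0.00 (edgeR adjusted p = 0.974) and 0.15 (edgeR adjusted p = 0.217). Hmox2 is the gene with the seed match printed above.

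Blvrb (ENSMUSG00000040466.16, chr7:27147275-27165569, plus strand), the NADPH-dependent flavin and biliverdin reductase, read 75.2, 60.6 and 65.1 CPM in healthy livers, 58.7, 48.5 and 65.2 CPM in untreated HCC and 58.4, 71.0 and 77.2 CPM with miR-22. The groups overlapped. The log2 fold change was -0.22 in HCC (SE 0.131, edgeR adjusted p = 0.173) and 0.26 with miR-22 against HCC (SE 0.131, edgeR adjusted p = 0.172). Blvra stayed between 10.7 and 15.2 CPM in healthy livers, 10.8 and 13 CPM in untreated HCC and 12.2 and 13 CPM with miR-22.

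Per kb of canonical transcript, which allows genes to be compared, the level in healthy liver ran from Alas1 (159 ± 39.9 CPM per kb) through Cpox (86.1 ± 2.01), Alad (62.9 ± 3.08), Blvrb (57.9 ± 6.46), Fech (30.9 ± 1.42), Urod (21.8 ± 0.959), Hmox1 (19.4 ± 3.22) and Ppox (11.7 ± 1.51) to Uros (7.51 ± 0.489). Alad and Blvrb, and Urod and Hmox1, were within their spread of each other. In untreated HCC, Alas1 still led (86.0 ± 15.1 CPM per kb), followed by Blvrb (49.7 ± 7.29), Cpox (40.4 ± 6.25) and Alad (36.9 ± 5.53), and Hmox1 (21.2 ± 2.83) had a higher mean than Fech (16.1 ± 2.04) and Urod (13.6 ± 1.78). The ranges of Blvrb, Cpox and Alad overlapped there, as did those of Hmox1 and Fech. In treated livers Fech (23.2 ± 2.02) and Urod (19.1 ± 0.411) had higher means than Hmox1 (18 ± 3.66), although both overlapped with Hmox1. The deposited counts are summed per gene, so these values rest on the length of 1 transcript per gene.

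Over the 9 genes in HCC against healthy liver, 5 were called lower and 0 higher. Over all genes tested, 40.8% were called, 22.7% higher and 18.1% lower, and 56.2% passed on adjusted p alone. The 9 had a median log2 fold change of -0.68 against 0.01 for all genes. In 5 of the 9 genes the groups did not overlap, against 65.3% of all genes, so separation of the groups alone was not more frequent among the 9. With total-count scaling all 5 falls kept an adjusted p under the threshold, but only Cpox (-0.67) also passed the fold threshold, while the split over all genes went from 3575 higher and 2842 lower to 5986 higher and 1492 lower.

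With miR-22 against untreated HCC, 1 of the 9 was called higher, Alas1, and 0 lower. Of all genes 13.8% were called, 8.32% higher and 5.47% lower, so 1 of 9 is close to the background. On adjusted p alone 4 of the 9 rose, namely Alas1, Urod, Cpox and Fech, and 0 fell, where 24.0% of all genes passed in either direction. The same 4 had groups that did not overlap, against 39.3% of all genes. The median was 0.26 for the 9 and 0.00 for all genes. Under total-count scaling the split over all genes moved from 1308 higher and 859 lower to 835 higher and 2164 lower. The count of 1 rose to 3 without untreated HCC replicate 4 and to 2 without miR-22-treated HCC replicate 4.

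The last comparison shares its healthy livers with the first and its treated livers with the second. Here miR-22-treated HCC had 2 of the 9 called lower, Alad and Cpox, and 0 higher. Over all genes 24.0% were called, 16.9% higher and 7.05% lower, and 36.5% passed on adjusted p alone, among the 9 also Fech. In 5 of the 9 the groups did not overlap, against 48.8% of all genes. The median was -0.19 for the 9 and 0.02 for all genes. Total-count scaling left only 1 of the 9 called and moved the split over all genes from 2664 higher and 1108 lower to 3408 higher and 593 lower.

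**Figure D2:**
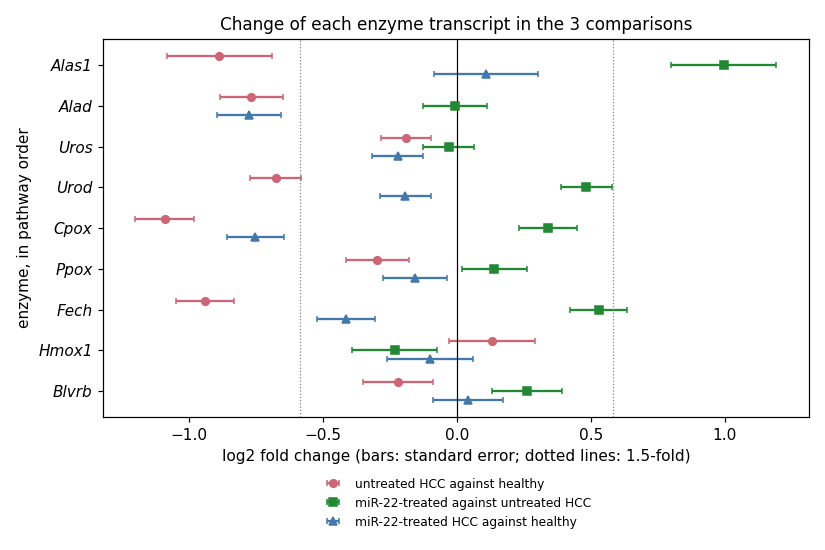
Log2 fold change with standard error of the 9 transcripts in pathway order for the 3 comparisons, with dotted lines at a 1.5-fold change. Alas1 has -0.89 in HCC and 1.00 with miR-22, Alad has -0.77 in HCC and -0.01 with miR-22, and the bars of Hmox1 stay within the dotted lines.

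The 32 other genes of heme synthesis, transport, binding and breakdown, among them the 3 partners, were all tested. In HCC against healthy 5 were called higher and 12 lower, beside 22.7% and 18.1% of all genes, with a median log2 fold change of -0.40. Total-count scaling gave 8 higher and 5 lower and a median of 0.02, so the balance of this list depends on the scaling, while no gene called in the main test changed sign. Those higher were Hp, Slc48a1, Hpx, Abcg2 and Alas2. Hp, the plasma protein haptoglobin that binds free hemoglobin, rose from 1210 ± 185 to 5620 ± 476 CPM, a log2 fold change of 2.22 (SE 0.179, edgeR adjusted p = 6.35e-07). Hpx, hemopexin, the plasma carrier of free heme, rose from 2650 ± 267 to 5380 ± 531 CPM. Slc48a1, a heme transporter of endosomes and lysosomes, rose by 1.09 (edgeR adjusted p = 8.94e-07). Both plasma proteins are also acute-phase proteins.

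Among the genes called lower, Ugt1a1, which conjugates bilirubin, fell from 216 ± 26.2 to 27.8 ± 13.1 CPM, a log2 fold change of -2.95 (SE 0.301, edgeR adjusted p = 4.05e-06), and stood at 68.7 ± 20.8 CPM with miR-22, a rise of 1.30 (SE 0.289, edgeR adjusted p = 0.007). The Ugt1a genes share their last exons, so the split of reads between them is uncertain. Slco1b2, a hepatocyte uptake transporter for bilirubin and other organic anions, fell from 1960 ± 271 to 535 ± 105 CPM and stood at 1270 ± 268 CPM with miR-22 (1.25, SE 0.189, edgeR adjusted p = 8.85e-04). Abcb10, a mitochondrial transporter tied to heme synthesis, fell by 1.06 in HCC. With miR-22 against untreated HCC, 5 of the 32 were called higher, Slco1b2, Hebp1, Abcc2, Ugt1a1 and Cd163, and 0 lower, beside 8.32% and 5.47% of all genes. The median of 0.12 became -0.12 under total-count scaling, where 2 were called in each direction. Hebp1, a heme-binding protein, rose by 0.72 (edgeR adjusted p = 0.00277), Abcc2, the canalicular pump for conjugated bilirubin, by 0.60 (edgeR adjusted p = 0.00569) and Cd163, the macrophage receptor for haptoglobin and hemoglobin, by 0.73 (edgeR adjusted p = 0.0332). This count fell to 3 without miR-22-treated HCC replicate 2 or replicate 3. Against healthy livers, treated livers had 5 higher and 5 lower (6 and 3 under total-count scaling), beside 16.9% and 7.05% of all genes, with Hp at 1.88 and Hpx at 1.11.

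**Figure D3:**
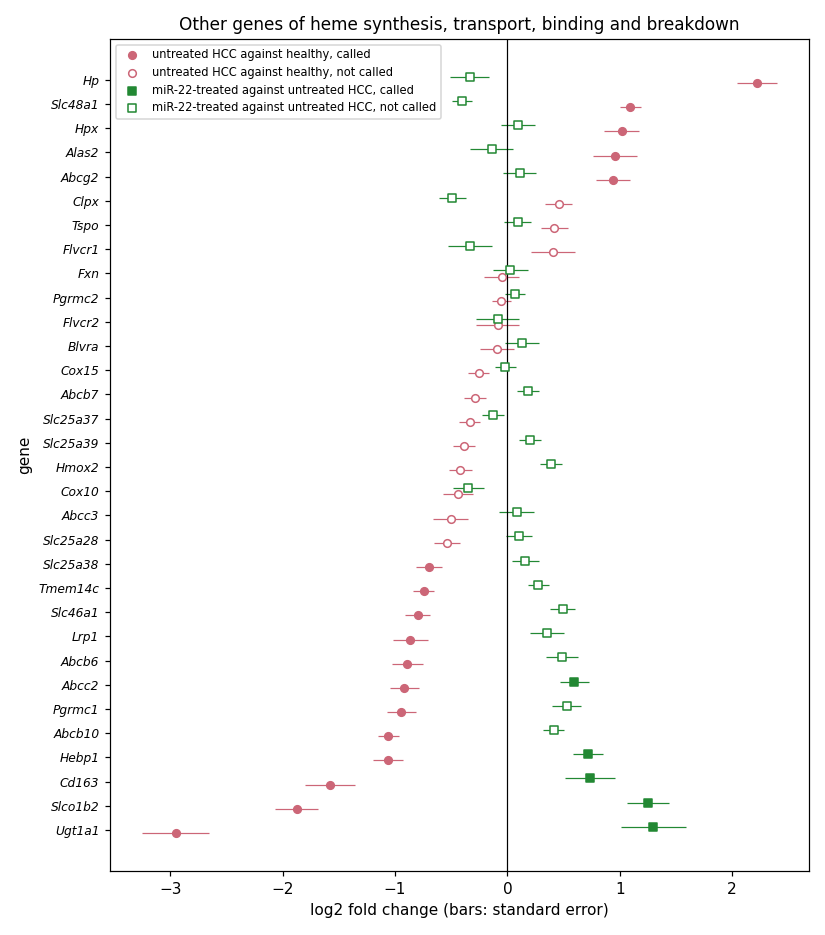
Log2 fold change with standard error of the 32 other heme pathway genes, ordered by the change in HCC against healthy liver, with filled symbols for genes called. Hp lies at 2.22 and Ugt1a1 at -2.95 in HCC, and the 5 genes called with miR-22 all lie to the right of 0.

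Regulators of Alas1 and Hmox1 were taken from a list of 17 genes, in which Bmal1 was found under its older symbol Arntl. In HCC 4 were called higher and 8 lower, with a median log2 fold change of -0.41, against 6 higher, 4 lower and a median of 0.01 under total-count scaling. Of all genes, 22.7% were called higher and 18.1% lower in HCC, and 8.32% and 5.47% with miR-22 against untreated HCC. Nr1i3, the nuclear receptor CAR, which raises Alas1 together with P450 genes, fell from 145 ± 11.2 to 19.1 ± 9.19 CPM (-2.91, SE 0.245, edgeR adjusted p = 9.05e-07) and read 57.8 ± 4.82 CPM with miR-22. Nfe2l2, which encodes NRF2, rose from 83.6 ± 2.1 to 189 ± 29.2 CPM (1.18, edgeR adjusted p = 6.26e-06), and Mafg, a small partner of NRF2 and BACH1, fell by 1.18, whereas the related Mafk (1.49) and Maff (0.85) rose. Of the clock genes on the list, Bmal1 rose by 2.70, and Nr1d2, which encodes a REV-ERB repressor, fell by 1.51, while the other REV-ERB gene, Nr1d1, was not called (-0.41, edgeR adjusted p = 0.112). With miR-22 against untreated HCC 6 were called higher and 1 lower, with a median of 0.30, against 4 higher and 3 lower under total-count scaling. Nr1d2 rose by 1.28, Nr1i3 by 1.59, Nr1i2, the nuclear receptor PXR, by 0.82 and Bach1, a heme-sensing repressor of Hmox1, by 0.66, and Bmal1 fell by 1.48 on the log2 scale. Treated livers against healthy had 4 higher and 2 lower (5 and 1 under total-count scaling), with Mafk at 1.09, Bmal1 at 1.23 and Nr1i3 at -1.32.

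Users of heme outside the P450 families formed a list of 20 genes, of which 18 were tested (not Ptgs2 or Mpo). It also holds Por and Cyb5r3, which are flavoproteins that pass electrons to hemoproteins. In HCC 5 were called higher and 7 lower, beside 22.7% and 18.1% of all genes, with a median log2 fold change of -0.36. With miR-22, 6 were called higher and 0 lower, beside 8.32% and 5.47% of all genes, with a median of 0.21. Total-count scaling gave 5 higher and 6 lower with a median of 0.06, and 3 higher and 0 lower with a median of -0.03. Por, the reductase for all microsomal P450 enzymes and for heme oxygenase, fell from 629 ± 51.3 to 110 ± 19.9 CPM (edgeR adjusted p = 1.25e-07) and read 397 ± 72.5 CPM with miR-22 (1.85, SE 0.16, edgeR adjusted p = 2.75e-05). Ido2, a tryptophan dioxygenase, fell by 3.08 and rose by 2.08, and Cyb5a, cytochrome b5, fell by 1.39 and rose by 0.69. Higher in HCC were Cybb (1.52), the heme subunit of the phagocyte oxidase, and Cygb (1.36), a globin of stellate cells. Treated livers against healthy had 3 higher and 5 lower, against 3 higher and 1 lower under total-count scaling.

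Across the 9 libraries, genes with the most similar course were found by the root-mean-square difference of centred log2 CPM among all 15717 genes. Alas1 was nearest to Gm43379 (0.162) and Cyp3a11 (0.166). Gm43379 had few counts, with means of 1.91, 1.04 and 1.74 CPM in healthy, untreated HCC and treated livers. Cyp3a11, a P450 enzyme of drug metabolism, read 2470 ± 229 CPM in healthy liver, 1390 ± 411 CPM in untreated HCC and 2560 ± 410 CPM with miR-22, although reads of the near-identical Cyp3a genes may be split between them. Alad was nearest to Mfhas1 (0.0616), Urod to Uqcrfs1 (0.0474), Cpox to Mreg (0.0639) and Fech to Pdzk1 (0.0457) and Echs1 (0.0508). For Uros the nearest was Gpkow (0.0456), for Ppox Ppp1r37 (0.0588), for Blvrb Klhdc3 (0.0794) and for Hmox1 Gm47572 (0.0931). Gm47572 also had few counts, with means of 0.658, 0.754 and 0.614 CPM in the same order of groups. For enzymes that changed little, a near profile is one that also changed little. These are descriptions, with no test.

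In bulk liver, fewer cells of a type and less RNA per cell cannot be told apart. Hepatocyte markers moved in the same directions as Alas1 in HCC and with miR-22 against untreated HCC. Of these, 12 of 12 were called lower in HCC and 9 of 12 higher with miR-22. In treated against healthy livers, 8 of 12 were called lower and 0 higher, with a median of -0.62, whereas Alas1 was at 0.11 and not called. The 12 markers summed to 133000 to 138000 CPM for healthy, 50800 to 64400 CPM for untreated and 78300 to 97500 CPM for treated livers. Alb alone stood at 101000, 45900 and 67200 CPM on average. Of the ductal markers, 5 of 6 rose in HCC and 3 fell with miR-22 (6 and 5 under total-count scaling). In HCC 4 of 4 tested neutrophil and 4 of 7 stellate markers rose, while the stellate marker Lrat was called lower in HCC. With miR-22, Lrat was called higher and the stellate marker Col1a1 lower, with a median of -0.43 for the list, against 1 higher and 5 lower under total-count scaling. Endothelial markers had 4 of 7 called lower in HCC and 2 higher with miR-22, against 1 higher and 1 lower in HCC and 1 higher with miR-22 under total-count scaling. With total-count scaling 10 of the 12 hepatocyte markers were called lower in HCC, 6 higher with miR-22 and 4 lower in treated against healthy livers. Over all genes, 22.7% were called higher and 18.1% lower in HCC, and 8.32% and 5.47% with miR-22 against untreated HCC. The part of these cell types in the change of the heme genes was not tested.

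Erythroid markers moved with Alas2, which is itself on that list. Of 12 genes, 5 were tested and 4 of these rose in HCC, Hbb-bs, Hba-a1, Alas2 and Hbb-bt, while Klf1 fell; 0 were called between both HCC groups. They summed to 119 to 174 CPM for healthy, 235 to 328 CPM for untreated and 216 to 241 CPM for treated livers. Hba-a1 read 53.2, 98.7 and 79.3 CPM on average, and Hba-a2 was at or near 0. Beside Hmox1, which macrophages also express, 6 of 15 macrophage markers were called higher and 2 lower in HCC. Total-count scaling gave 8 higher and 1 lower. In the main test Spp1, Ccr2, Trem2, C1qa, Cd68 and Gpnmb were higher, and Cd163 and Timd4 lower. Ccr2 rose from 1.87 to 13.9 CPM on average, Trem2 from 0.391 to 3.43 CPM and Gpnmb from 0.183 to 1.88 CPM. Trem2 and Gpnmb had few counts in healthy livers. With miR-22 against untreated HCC, Cd163 was called higher and Spp1 lower. Without Spp1, which ductal and tumor cells also express, the macrophage markers summed to 460 to 581 CPM for healthy, 488 to 566 CPM for untreated and 584 to 617 CPM for treated livers. Clec4f, a Kupffer cell marker, read 168, 126 and 168 CPM, Adgre1 16.4, 19.7 and 21.7 CPM and Cd68 7.64, 12.2 and 11.8 CPM.

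**Figure D4:**
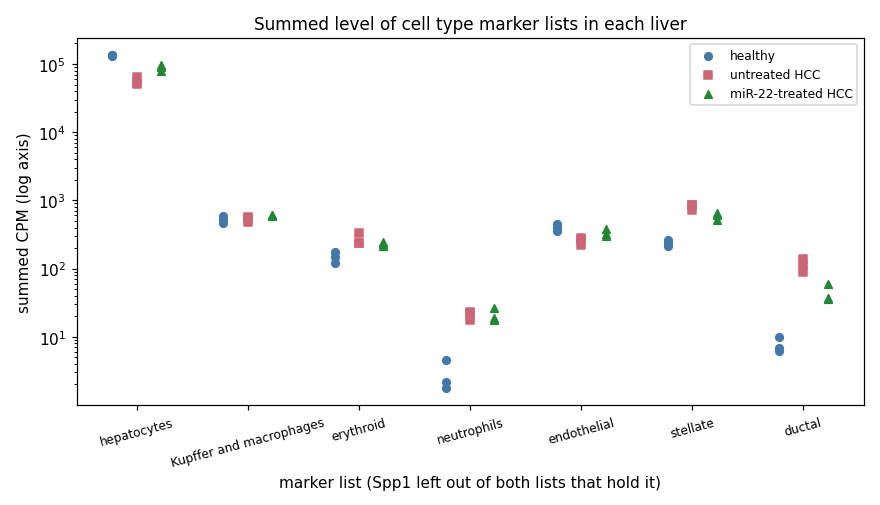
Summed CPM of 7 lists of cell type markers in each liver, on a log axis, with Spp1 left out of both lists that hold it. Hepatocyte markers are lowest in the untreated HCC livers (50800 to 64400 CPM). Summed macrophage markers lie between 460 and 617 CPM in all groups, although single markers of that list moved in both directions.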

How the data were processed

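RNA of 9 livers, 3 in each of 3 groups as labelled, was sequenced by the authors as non-directional paired-end libraries. According to the methods and the labels, the authors checked reads with FastQC 0.11.7, quantified them with Salmon on GRCm39 with GENCODE transcripts, and summed them per gene with tximport for DESeq2 1.18. They deposited these counts as whole numbers for 55401 genes, without normalization or filter. A further table, of values normalized by the authors, was not used. Salmon shares reads between similar transcripts by an estimate, and reads without strand cannot separate a gene from an antisense neighbour.

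The two-sided quasi-likelihood F test of edgeR 4.0.16, run under R 4.3.3, was fitted to all 9 libraries at once after TMM scaling, with the group as the only term. Its filterByExpr step kept 15717 genes. A call needed a Benjamini-Hochberg adjusted p under 0.05 over all genes tested and a fold over 1.5. The common dispersion was 0.0206, a coefficient of variation of 14.4% between livers. The SE given is that of a log2 fold change. Alternatives were DESeq2 1.42.0, DESeq2 size factors, upper-quartile scaling, limma 3.58.1 on log2(CPM + 1), no filter, at least 10 counts in every library, the groups compared alone, the replicate number as a block, no fold threshold and each liver left out. Total-count scaling was added after the data were seen. Named genes are the 9 enzymes, 3 partners, up to 5 called genes per list and comparison by smallest adjusted p, and the 2 nearest profiles of each enzyme; other names complete counts and were chosen after their values were seen. The 9 genes, the lists and the rule were chosen with earlier results of these data known. A further gene of the rule is not reported here and was left out of the lists. Sequences came from RefSeq tables (GRCm38.p6) and GENCODE M39 (GRCm39), of which promoter windows were found for 7 of the 9 genes. The study's methods name a GENCODE release together with GRCm39, but the mouse release of that number is on the assembly before it. The GENCODE release behind the counts is therefore not settled by the sources used here, so transcript lengths and 3′ UTRs from M39 may differ from it. Figures were drawn with Python 3.11.15 and matplotlib 3.10.9.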

Additional observations from a re-analysis of the deposited data

How the results depend on the processing

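Of 27 fold changes of the 9 genes, 14 kept their direction and their side of the threshold on adjusted p alone under all 18 alternatives. The replicate numbers did not pair the livers (correlations of same-numbered HCC livers -0.121, -0.131 and -0.235). With the replicate block, 5863, 1745 and 3044 genes were called in HCC against healthy, miR-22 against HCC and miR-22 against healthy, with 5, 1 and 2 of the 9; the block ended the passes of Cpox with miR-22 (0.35, edgeR adjusted p = 0.0791) and of Fech in treated against healthy livers (-0.46, edgeR adjusted p = 0.0594). Without the fold threshold, 8838 genes passed in HCC against healthy, 3777 with miR-22 against HCC and 5732 with miR-22 against healthy. These included 5, 4 and 3 of the 9, and 27, 12 and 20 of the 32 other heme genes. Leaving out 1 liver gave 1433 to 2660 genes with miR-22 against HCC, 1433 being without miR-22-treated HCC replicate 3, and 1 to 3 of the 9 and 3 to 7 of the 32. Total-count scaling left 1 of the 9 called in HCC and 1 in treated livers against healthy, and turned the sign of Uros (0.23), Ppox (0.12) and Blvrb (0.20) in HCC, of Ppox with miR-22 (-0.09), and of Ppox (0.03) and Hmox1 (0.09) in treated against healthy livers. Without 1 liver, signs turned for values that had not passed the test: with miR-22 against HCC Alad ran from -0.11 to 0.11 (0.11 without untreated HCC replicate 4, 0.03 and 0.04 without treated replicates 3 and 4) and Uros from -0.07 to 0.02 (without untreated HCC replicate 4). In treated against healthy livers Alas1 ran from -0.06 (without treated replicate 3) and -0.05 (without healthy replicate 2) to 0.31, Hmox1 from -0.28 to 0.01 and 0.02 (without healthy replicate 1 and treated replicate 3), and Blvrb from -0.05 (without treated replicate 4) and -0.04 (without healthy replicate 2) to 0.14. The cause of these changes was not tested, and 3 livers per group limit what can be called among small differences.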
